A study of Mus musculus with 16 samples.

Results

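The lysosome genes described here are 40 genes of lysosomal enzymes, membrane proteins and their helpers, chosen by gene symbol from the 46078 genes of the count table. They comprise 9 cathepsins, 7 membrane proteins, 9 glycosidases, 5 lipid hydrolases, 4 sulfatases, 4 lipid activators and carriers, the peptidase gene Tpp1 and the regulator Tfeb. Grn, which encodes the precursor of the granulins, was counted with the lipid activators and carriers, a label that does not describe it. All 40 had one row each in the table, and all 40 passed the filter on low counts, so that each is among the 15096 genes tested.

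RNA was sequenced from spinal cord lesions of C57BL/6 mice aged 8 to 12 weeks. The lesions were made with lysolecithin, a lipid detergent that strips myelin from axons, and were cut out of frozen cord by laser microdissection. There were 4 groups of 4 libraries: exercise at day 10 (replicates 13, 17, 18 and 19), control at day 10 (2, 3, 4 and 5), exercise at day 5 (1, 2, 7 and 12) and control at day 5 (1, 2, 5 and 6). Exercise mice had a freely turning wheel and control mice a locked one, and every group, controls included, carried the lysolecithin lesion. No uninjured tissue was analysed here. The labels do not tie libraries to single animals, and the spread behind each p-value may therefore be technical. They also do not say from which event the days count.

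Lysosomes are acidic compartments in which macromolecules are broken down to reusable units. Cathepsins cut proteins, glycosidases and sulfatases strip sugars and sulfates from glycoproteins, glycolipids and glycosaminoglycans, and lipid hydrolases, helped by small activator proteins, degrade the lipids that are left. In a demyelinated lesion, microglia and infiltrating macrophages take up myelin debris, whose lipids are digested in this way. Many lysosomal genes are known targets of the transcription factor TFEB and its relatives, which bind palindromic E-boxes in promoters.

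Gla is the gene of alpha-galactosidase A, which removes galactose from glycolipids. It showed the largest fall of any of the 40 genes between the days in both wheel groups. Its promoter holds the letters of such an E-box 2 times, and a part of TFEB in the fall was not tested. The RefSeq promoters (GRCm38.p6; 250 bases before to 50 after the start) covered 36 of the 40 genes; Ctsb, Ctsh, Asah1 and Npc1 had no entry. The hexamer CACGTG, which reads the same on both strands, was in the promoters of 11 of the 36 genes (30.6%), against 8.09% of all 27025 genes in the table. Those 11 were Ctsa, Ctsd, Ctsl, Lamp1, Mcoln1, Gaa, Gla, Glb1, Naglu, Arsa and Sgsh. Since many lysosomal genes are known TFEB targets, a higher share among them is background and no result of these data. The 27025 genes also include genes that were not tested here, whereas the 36 all passed the filter on low counts. The longer palindrome TCACGTGA, which contains the hexamer, was in 4 of 36 (11.1%), against 1.12% of all genes. These 4 sequences are printed 5′ to 3′ on the gene's strand, with TCACGTGA in capitals. They show where this string stands in Gla, which passed between the days, and in Ctsd, Ctsa and Mcoln1, which did not.
Gla, chrX:134601162-134601255, minus strand, matches 228 and 195 bases before the start: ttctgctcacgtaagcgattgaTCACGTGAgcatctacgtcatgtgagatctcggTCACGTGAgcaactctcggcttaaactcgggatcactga
Ctsd, chr7:142387909-142387936, minus strand, match 99 bases before the start: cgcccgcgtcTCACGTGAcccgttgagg
Ctsa, chr2:164833750-164833772, plus strand, match 13 bases before the start: gagcaaactgTCACGTGAtgcag
Mcoln1, chr8:3500463-3500490, plus strand, match 46 bases before the start: ggcgccccgcTCACGTGAccgcggcgca
In the GENCODE annotation of the same assembly, the Gla stretch lies outside every exon of its gene, while the other 3 stretches overlap an annotated exon and are kept short. Of the 11 genes with the hexamer, 1 passed the test between days in control lesions and 2 in exercise lesions, all lower at day 10. Of the 25 genes without it, 6 were lower and 2 higher in control lesions, and 3 were lower and 2 higher in exercise lesions. Among all genes tested the shares were 6.64% lower and 5.66% higher in control and 4.9% lower and 5.17% higher in exercise. Median log2 changes were -0.16 with the hexamer and -0.04 without it in exercise, and -0.34 with it and -0.16 without it in control, so that in control the counts and the medians pointed in opposite directions. These values include exercise replicate 17 of day 10, described below. In the fit that left out that library, the hexamer genes Gla, Lamp1, Ctsl and Sgsh were lower in exercise. Among genes without the hexamer, Psap, Cd68, Cd63, Lipa, Ctsc, Grn and Gusb were then lower and Man2b1 higher. Over all genes in that fit 5.86% were lower and 6.07% higher, and medians by hexamer were not computed for it. Psap, Lipa, Cd68 and Man2b1, which also changed, had no match in this window. A match is a string of letters and not a measured binding site.

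Library totals were 9.77 to 11.09 M counts in exercise and 10.71 to 12.7 M in control at day 10, and 8.13 to 10.93 M in exercise and 11.2 to 13.93 M in control at day 5. At day 5 the mitochondrial ribosomal RNA mt-Rnr2 took 10.91% to 12.94% of counts in exercise and 8.05% to 10.28% in control, so depth and this share cannot be told apart from exercise at that day. Exercise replicate 17 of day 10 stood apart from the other day 10 libraries in these genes: it was the highest of the 8 in 29 of the 40. The same library had the largest summed level of 10 microglial markers at day 10, 16420 CPM (counts per 1 M counts, scaled by the TMM method), against 7841 to 10860 CPM in the other exercise and 7122 to 9743 CPM in the control libraries. Its summed level of 10 oligodendrocyte markers was the lowest of day 10, 12350 CPM, against 16140 to 28470 CPM in the other exercise and 24670 to 27760 CPM in the control libraries. Many counts and estimates that rest on exercise at day 10 are given with and without replicate 17. The rest include that library unless stated. The part of the microglial and oligodendrocyte markers in the results was not tested.

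**Figure D1:**
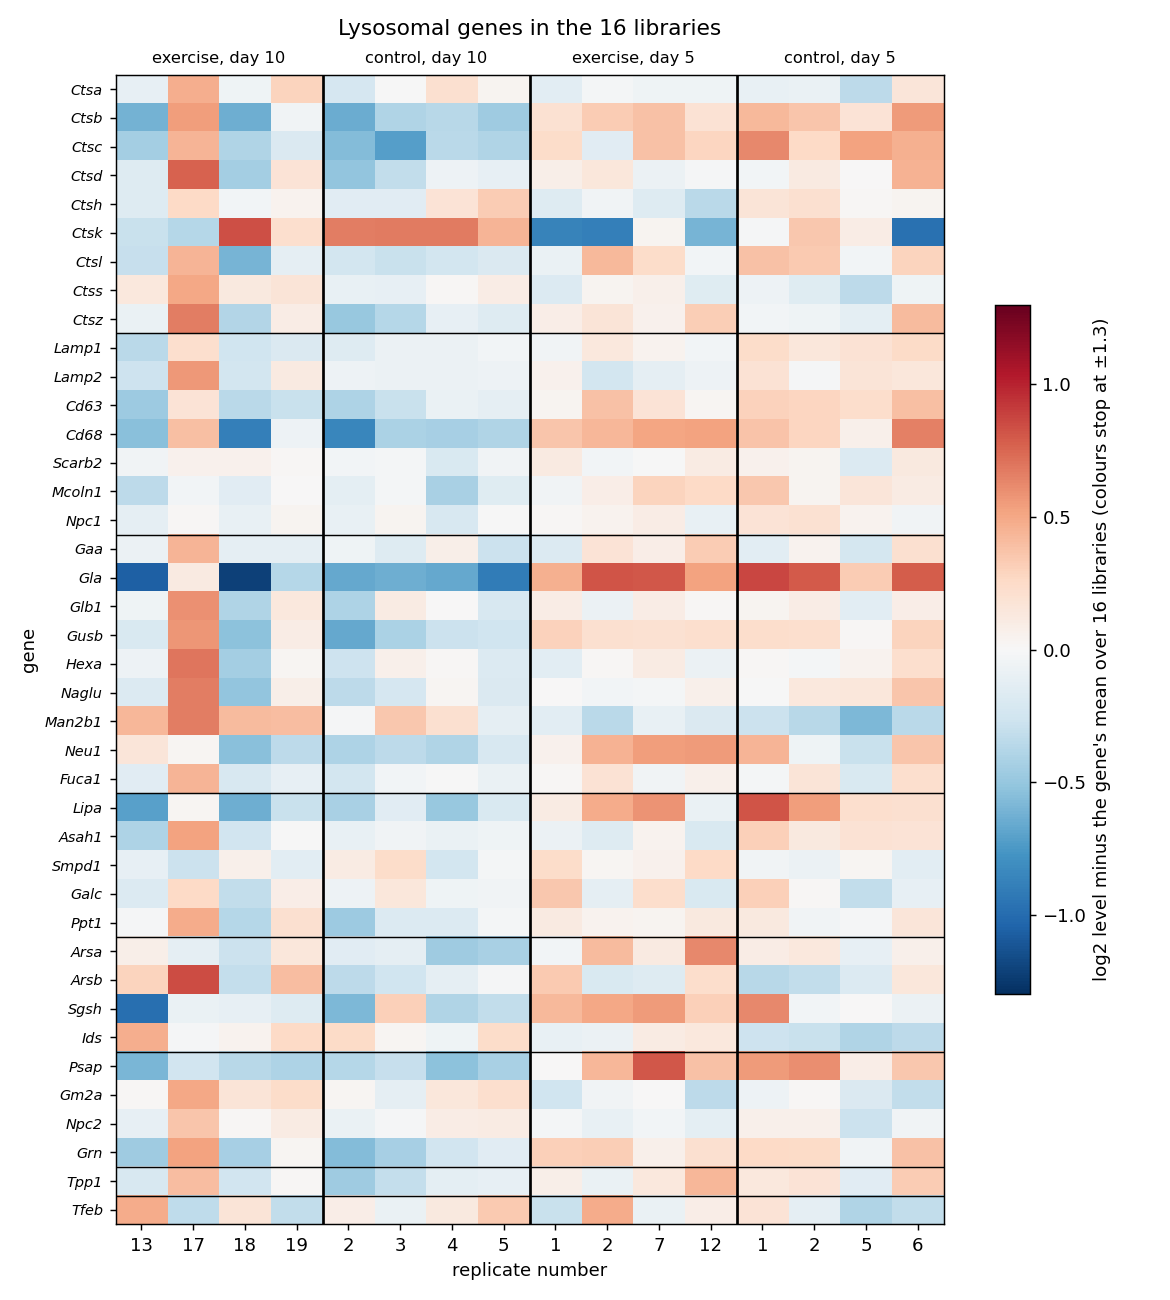
Level of each of the 40 lysosome genes (rows, grouped by role) in the 16 libraries (columns, with replicate numbers), as the log2 level minus the gene's mean over all 16; red is above and blue below that mean. Most rows of exercise replicate 17 at day 10 are red, and Gla, Psap and Cd68 are blue in most of the other day 10 libraries and red in most of day 5.

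The lysosome genes made up a large share of the lesion's RNA. Their summed level was 57470 ± 17120 CPM in exercise and 47700 ± 4123 CPM in control at day 10, and 63300 ± 2204 CPM in exercise and 65620 ± 6259 CPM in control at day 5 (SD, n = 4 libraries each). The sum in replicate 17 was 81350 CPM, and the other 3 exercise libraries of day 10 had 49510 ± 7691 CPM. In every library 5 genes held 65.68% to 72.19% of the sum, with Ctsd, Grn and Ctsb always among them.

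Levels between genes are compared per kilobase of exon. Ctsd, the gene of the main aspartic protease of lysosomes, was first, with 5652 ± 2151 CPM per kb in exercise and 4298 ± 602.1 CPM per kb in control at day 10, and 5205 ± 351.6 and 5617 ± 907.9 CPM per kb in exercise and control at day 5. Grn, which encodes progranulin, a lysosomal protein cut into granulins, was second, with 3779 ± 1282 and 3049 ± 390.9 CPM per kb in exercise and control at day 10 and 4514 ± 369 and 4475 ± 533.7 CPM per kb at day 5. The difference between these means was smaller than the SD of Ctsd in exercise at day 10 and larger than either SD in the other 3 groups. Over all 16 libraries the mean was 2166 CPM per kb for Ctss, 1539 for Ctsb, 1287 for Psap and 1189 for Lamp1. Glycosidases and lipid hydrolases were lower: Gusb had 368.1, Lipa 252.5, Hexa 227.5, Galc 30.67 and Gla 19.29 CPM per kb. Sgsh was last at 2.905 CPM per kb, just under Tfeb at 3.858, and their SDs within groups were up to 0.7953 and 1.097 CPM per kb, so this lowest pair overlapped.

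In control lesions the lysosome genes mostly pointed downward between the days, and the falls that passed the test were spread over cathepsins, membrane proteins, sugar-cutting enzymes, a lipid hydrolase and a lipid activator. By edgeR's quasi-likelihood test with Benjamini-Hochberg adjustment over all genes, 8 of 40 were lower and 2 higher at day 10 than at day 5, at an adjusted p below 0.05. Among all genes tested, 6.64% were lower and 5.66% higher. The median log2 change of the 40 genes was -0.27, against 0.01 over all genes, and 30 of the 40 values were below 0. In tissue samples, fewer cells of a type and less RNA per cell cannot be told apart. Over the same days 4 of 10 microglial markers rose and 3 of 10 markers of monocyte-derived macrophages fell in control lesions, and their part in the change was not tested.

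Gla (ENSMUSG00000031266) spans bases 134588149 to 134601125 of chromosome X on the minus strand of GRCm38. It had 35.01, 35.9, 35.09 and 29.64 CPM in the control libraries at day 10, against 101.6, 96.89, 70.22 and 96.31 CPM at day 5. No library of day 10 reached any of day 5. The level was 2.69-fold lower at day 10 (log2 change -1.43, SE 0.22, adjusted p 0.000458). Ctsc encodes cathepsin C, which activates the serine proteases of immune cells. It had 537.2, 486.3, 626 and 605.1 CPM at day 10, against 1224, 950, 1144 and 1097 CPM at day 5. The groups did not overlap, and the level was 1.96-fold lower (log2 change -0.97, SE 0.17, adjusted p 0.00122).

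Psap (ENSMUSG00000004207; chromosome 10, bases 60277627 to 60302597, plus strand) encodes prosaposin, the precursor of the saposins that present sphingolipids to their hydrolases. Its control libraries held 2604, 2739, 2332 and 2511 CPM at day 10, against 4949, 5099, 3565 and 4279 CPM at day 5. This was a fall of every day 10 library below every day 5 library (log2 change -0.81, SE 0.15, adjusted p 0.00177). Cd68, a heavily glycosylated membrane protein of macrophage lysosomes, had 465.3, 627.7, 620.1 and 635.5 CPM at day 10, against 1076, 1010, 874.4 and 1314 CPM at day 5. The groups were again apart (log2 change -0.86, SE 0.20, adjusted p 0.00912). Lipa, which encodes the acid lipase that frees cholesterol from its esters, had 533.5, 646, 509.5 and 622.6 CPM at day 10, against 1260, 1044, 829.2 and 823.3 CPM at day 5 (log2 change -0.77, SE 0.18, adjusted p 0.00883).

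The 3 other genes that fell were Ctsb, a broad cysteine protease, with a log2 change of -0.85 (adjusted p 0.00837), Gusb, the beta-glucuronidase of glycosaminoglycan breakdown, with -0.59 (adjusted p 0.0275), and Cd63, a tetraspanin of late endosomes and lysosomes, with -0.52 (adjusted p 0.0125). For these too the libraries of the 2 days did not overlap. The call for Gusb was lost when control replicate 1, 2 or 6 of day 5, or control replicate 2 or 3 of day 10, was left out, with adjusted p-values up to 0.0913.

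Man2b1 (ENSMUSG00000005142; chromosome 8, bases 85083269 to 85098739, plus strand) encodes the lysosomal alpha-mannosidase, which trims the sugar chains of glycoproteins. It was the clearest gene that rose in control lesions, with 391.5, 506.5, 458.1 and 366.9 CPM at day 10, against 327.3, 309.7, 264.8 and 311.9 CPM at day 5. All 4 libraries of day 10 were above all 4 of day 5 (log2 change 0.51, SE 0.11, adjusted p 0.00629). Ids, the iduronate sulfatase of heparan and dermatan sulfate breakdown, had 28.33, 24.27, 22.9 and 28.16 CPM at day 10, against 19.8, 19.58, 18.18 and 18.82 CPM at day 5 (log2 change 0.44, SE 0.13, adjusted p 0.0339). The Ids call held without control replicate 4 of day 10 and was lost, with adjusted p-values up to 0.0999, when any of the other 7 control libraries was left out.

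Other named genes did not pass in control lesions. Ctsd had 8949, 10260, 12210 and 11900 CPM at day 10, against 12440, 13870, 12820 and 17460 CPM at day 5. These groups did not overlap, yet the log2 change of -0.39 (SE 0.20) had an adjusted p of 0.222. Lamp1, the most abundant glycoprotein of the lysosomal membrane, had 2373, 2529, 2521 and 2599 CPM at day 10 and 3147, 2952, 3029 and 3158 CPM at day 5, with a log2 change of -0.29 and an adjusted p of 0.0962. Its groups were also apart, and DESeq2 gave an adjusted p of 0.0448. Galc, the enzyme that degrades the myelin lipid galactosylceramide, had 111.2, 128.9, 111.3 and 112.7 CPM at day 10 within the day 5 values of 144, 117.1, 92.94 and 107.4 CPM. Its log2 change was 0.01, with a 95% interval of -0.29 to 0.30. Hexa (-0.16), an enzyme of ganglioside breakdown, and Tfeb (0.27) also missed the threshold, at adjusted p-values of 0.599 and 0.417.

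**Figure D2:**
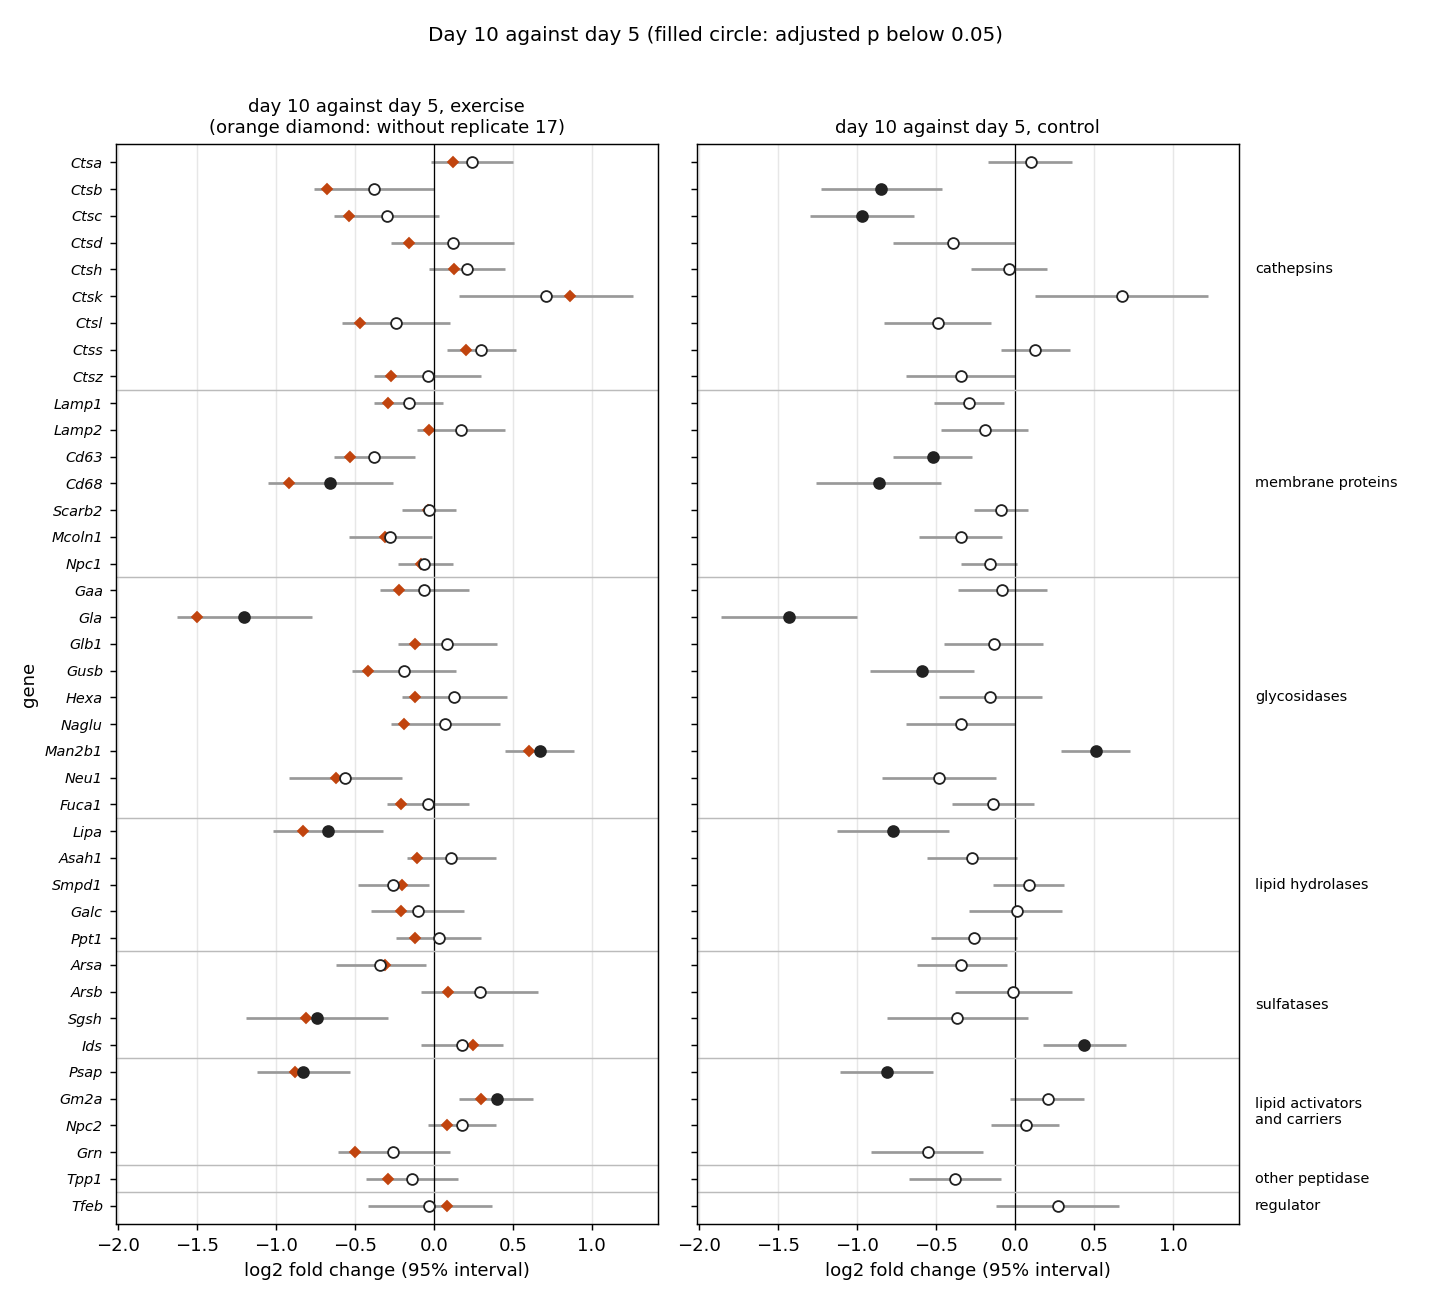
Log2 fold change at day 10 against day 5 for each of the 40 genes, in exercise (left) and control (right); circles are estimates, bars 95% intervals, filled circles passed at an adjusted p below 0.05, and orange diamonds are exercise values without replicate 17. In control 8 filled circles lie left of 0 and 2 right of it, and in exercise 5 left and 2 right, with Gla farthest left in both panels.

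In exercise lesions 5 of 40 genes fell and 2 rose between the days, against 4.9% lower and 5.17% higher among all genes. The median log2 change was -0.05, and 24 of the 40 values were below 0. Without replicate 17 of day 10, 12 fell and 1 rose, against 5.86% lower and 6.07% higher among all genes in that fit, and the median was -0.21. These 12 included all 8 genes that fell in control lesions, and the other 4 were Grn, Lamp1, Ctsl and Sgsh. In control Grn, Lamp1 and Ctsl were also called lower by DESeq2 and in the edgeR fit of only the groups compared. Their absence from the 8 therefore depended on the fit.

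Gla had 26.73, 60.31, 23.94 and 43.02 CPM in exercise libraries at day 10, against 76.82, 98.44, 97.69 and 79.93 CPM at day 5. Even the highest of day 10, replicate 17, was below all of day 5 (log2 change -1.20, SE 0.22, adjusted p 0.00225), and without that replicate the log2 change was -1.50. Psap had 2234, 2837, 2625 and 2552 CPM at day 10, against 3375, 4543, 5892 and 4367 CPM at day 5. No libraries overlapped (log2 change -0.83, SE 0.15, adjusted p 0.00201), and the change without replicate 17 was -0.88. Man2b1 had 533.8, 629.8, 526.5 and 522.8 CPM at day 10, against 360, 311.9, 372 and 349.4 CPM at day 5. It was higher in 4 of 4 libraries (log2 change 0.67, SE 0.11, adjusted p 0.00123; 0.60 without replicate 17).

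These 3 genes, Gla, Psap and Man2b1, passed in both wheel groups and kept their calls in each of the 8 fits that left out 1 exercise library and in each of the 8 that left out 1 control library. Lipa and Cd68 also passed in both wheel groups, which makes 5 genes in all. Lipa had 439.8, 726.1, 459.8 and 583.2 CPM in exercise at day 10, against 772.6, 998.4, 1071 and 674 CPM at day 5. Replicate 17 lay above the lowest library of day 5, so the groups overlapped (log2 change -0.67, SE 0.18, adjusted p 0.0237; -0.83 without replicate 17). Its call was lost in 4 of the 8 fits that left out 1 library, those without replicates 2 or 7 of day 5 or 13 or 18 of day 10, with adjusted p-values up to 0.0839.

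Cd68 had 571.4, 1091, 452.2 and 795.9 CPM in exercise at day 10, against 1072, 1129, 1189 and 1199 CPM at day 5. The single overlap was again replicate 17, which lay above the lowest library of day 5 (log2 change -0.66, SE 0.20, adjusted p 0.0456). Without that library the log2 change was -0.92 with an adjusted p of 0.00198. In the 7 other fits that left out 1 library the call was lost, with adjusted p-values up to 0.104.

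**Figure D3:**
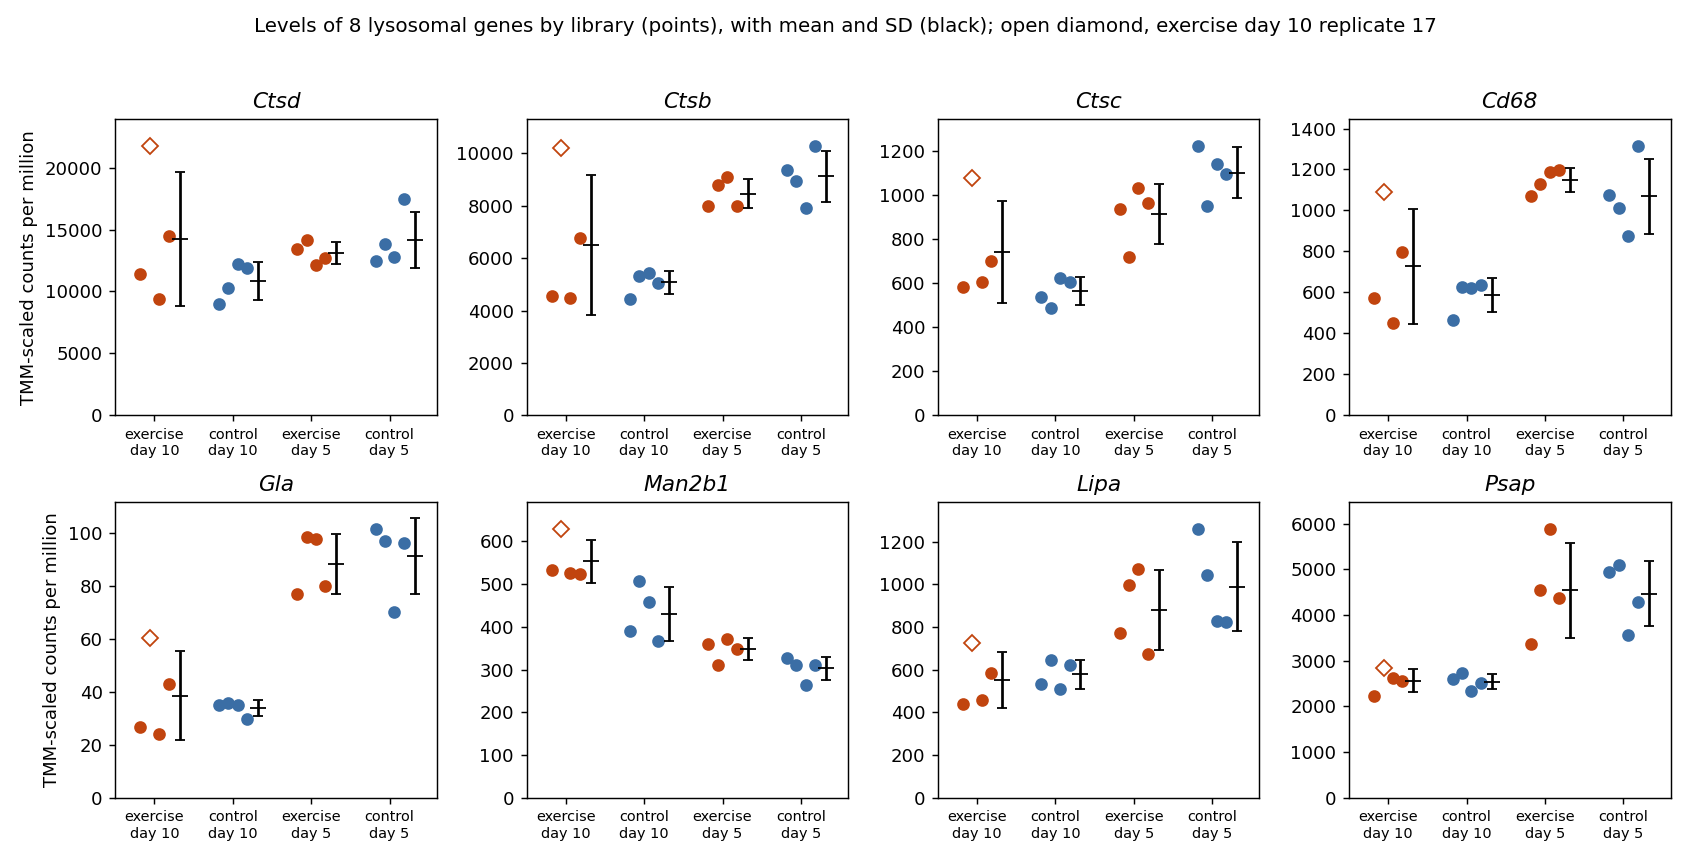
Level in CPM (vertical axes from 0) of 8 lysosome genes in each library, with exercise in orange, control in blue and the group mean and SD in black; the open diamond is exercise replicate 17 of day 10. Gla, Psap and Man2b1 separate day 10 from day 5 in both wheel groups, while for Ctsb, Ctsc and Cd68 the open diamond of exercise lies at or near the day 5 level.

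Sgsh, the sulfatase that starts heparan sulfate breakdown from its sulfated amino sugar, had 6.24, 11.61, 11.44 and 10.96 CPM in exercise at day 10, against 16.52, 17.48, 18.03 and 15.19 CPM at day 5 (log2 change -0.74, SE 0.23, adjusted p 0.0479). Gm2a, the activator protein of GM2 ganglioside breakdown, had 333.3, 466.8, 369.4 and 388.1 CPM at day 10, against 275, 318.7, 330 and 260.4 CPM at day 5 (log2 change 0.40, SE 0.12, adjusted p 0.0418). In control Gm2a had 336.6, 303.9, 365.5 and 384.3 CPM at day 10, against 315.3, 333.9, 290.5 and 264.9 CPM at day 5, and did not pass (log2 change 0.21, adjusted p 0.28). For Sgsh and Gm2a the exercise groups were apart, but each call lay near the threshold and was lost in 7 of the 8 fits that left out 1 exercise library, with adjusted p-values up to 0.113 for Sgsh and 0.122 for Gm2a. The Sgsh call held without replicate 17 of day 10, and the Gm2a call without replicate 13. Without replicate 17 the log2 change of Gm2a was 0.30 (adjusted p 0.092).

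Replicate 17 moved the estimates of several genes, and with it the sign of Ctsd, Hexa and Tfeb. Ctsd in exercise had 11380, 21740, 9379 and 14450 CPM at day 10, against 13440, 14180, 12160 and 12670 CPM at day 5. Its log2 change was 0.12 with replicate 17 and -0.16 without it, at adjusted p-values of 0.757 and 0.552. Ctsb had 4552, 10210, 4494 and 6761 CPM at day 10, against 8002, 8802, 9088 and 7984 CPM at day 5. Here replicate 17 was above every day 5 library and the other 3 were below every one, and the log2 change was -0.38 with it (adjusted p 0.231) and -0.68 without it (adjusted p 0.00346). Ctsc likewise had a log2 change of -0.30 with that library (adjusted p 0.278) and -0.54 without it (adjusted p 0.011). Lamp1 had -0.16 with it (adjusted p 0.409) and -0.29 without it (adjusted p 0.0272). Hexa had 0.13 with it and -0.12 without it, Galc -0.10 and -0.21, and Tfeb -0.03 and 0.08, and all of these missed the threshold.

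Ctss, a cathepsin active at neutral pH and typical of microglia and macrophages, had 3212, 4141, 3179 and 3285 CPM in exercise at day 10, against 2569, 2981, 3058 and 2611 CPM at day 5. The groups were apart, with every library of day 10 above every one of day 5. The log2 change of 0.30 (SE 0.11) had an edgeR adjusted p of 0.0962, while DESeq2 called it, and without replicate 17 it was 0.20 (adjusted p 0.191). In control Ctss had 2731, 2708, 2943 and 3121 CPM at day 10, against 2776, 2622, 2310 and 2811 CPM at day 5, with overlap (log2 change 0.13, adjusted p 0.496).

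Whether the change between days depended on exercise was tested directly as the difference of the exercise effects, day 10 minus day 5. None of the 40 genes passed, and 0% of all genes did, by edgeR's quasi-likelihood test; at an unadjusted p below 0.05 there was 1 gene on the positive side, Ctsc, and 1 on the negative side, Smpd1. Among all genes 4.77% and 4.35% did so. DESeq2 and limma-voom also called none of the 40. The difference was 0.67 for Ctsc, with a 95% interval of 0.20 to 1.14 and an adjusted p of 0.504. Ctsc had 584.8, 1081, 605.1 and 699.4 CPM in exercise at day 10, and 940.2, 719.1, 1035 and 964.6 CPM in exercise at day 5. Replicate 17 was the highest of the 8 day 10 libraries, replicate 19 also lay above the highest control library (626 CPM), and without replicate 17 the difference was 0.44 (adjusted p 0.7). For the genes followed in every comparison the differences were 0.50 for Ctsd, 0.17 for Ctss, 0.14 for Lamp1, 0.21 for Cd68, 0.29 for Hexa, 0.10 for Lipa, -0.11 for Galc and -0.30 for Tfeb. Without replicate 17 the differences were 0.23 for Ctsd, 0.08 for Ctss, 0.01 for Lamp1 and -0.05 for Cd68. In that fit Hexa had 0.04, Lipa -0.05, Galc -0.21 and Tfeb -0.19. Of the 40 estimates with all libraries 32 were above 0, with a median of 0.17, and without replicate 17 the median was 0.04.

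At day 10 no lysosome gene differed between exercise and control at the threshold, while 0.192% of all genes did. The 40 values had a median log2 change of 0.16, against 0.01 over all genes, and 32 were above 0. Without replicate 17 the median was 0.02 and 22 were above 0. At an unadjusted p below 0.05 there were 7 higher and 0 lower, against 7.25% and 5.56% of all genes, and these were Ctsc, Ctss, Ctsz, Gusb, Man2b1, Ppt1 and Arsb. Without replicate 17 the 2 genes below that level were Man2b1 and, on the lower side, Lamp1, against 10.5% of all genes in either direction. DESeq2 and limma-voom also called none of the 40.

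Man2b1 had the smallest p among these. Its exercise libraries, given above, lay at 522.8 to 629.8 CPM and its control libraries at 366.9 to 506.5 CPM at day 10. Every exercise library was above every control library (log2 change 0.36, SE 0.11), but the adjusted p was 0.195, and without replicate 17 the log2 change was 0.29 (adjusted p 0.352). Arsb, the arylsulfatase of dermatan sulfate, had 429.3, 628.3, 282.8 and 463 CPM in exercise, against 277, 292.5, 323.3 and 346.6 CPM in control at day 10. The groups overlapped through exercise replicate 18 (log2 change 0.54, SE 0.19, adjusted p 0.247). Without replicate 18 Arsb passed at an adjusted p of 0.0498, and without replicate 17 its log2 change was 0.34 (adjusted p 0.502).

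For Ctss, with the values given above, every exercise library of day 10 lay above every control library. The log2 change of 0.26 (SE 0.11) had an adjusted p of 0.335, and without replicate 17 it was 0.17 (adjusted p 0.571). The other named genes at day 10 had log2 changes of 0.39 for Ctsd, -0.04 for Lamp1, 0.31 for Cd68, 0.20 for Hexa, -0.07 for Lipa, -0.02 for Galc and -0.08 for Tfeb, with adjusted p-values of 0.417 or above. Without replicate 17 the values were 0.12 for Ctsd, -0.18 for Lamp1, 0.05 for Cd68 and -0.06 for Hexa. In that fit Lipa had -0.22, Galc -0.12 and Tfeb 0.02. With all libraries, Ctsk, a collagen-degrading cathepsin, and Smpd1, the acid sphingomyelinase, had the smallest p on the lower side, and neither passed. Ctsk had 38.56, 36.4, 84.33 and 54.79 CPM in exercise, against 74.57, 75.35, 75.31 and 64.19 CPM in control (log2 change -0.43, adjusted p 0.536). Its exercise libraries spread on both sides of the control libraries.

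**Figure D4:**
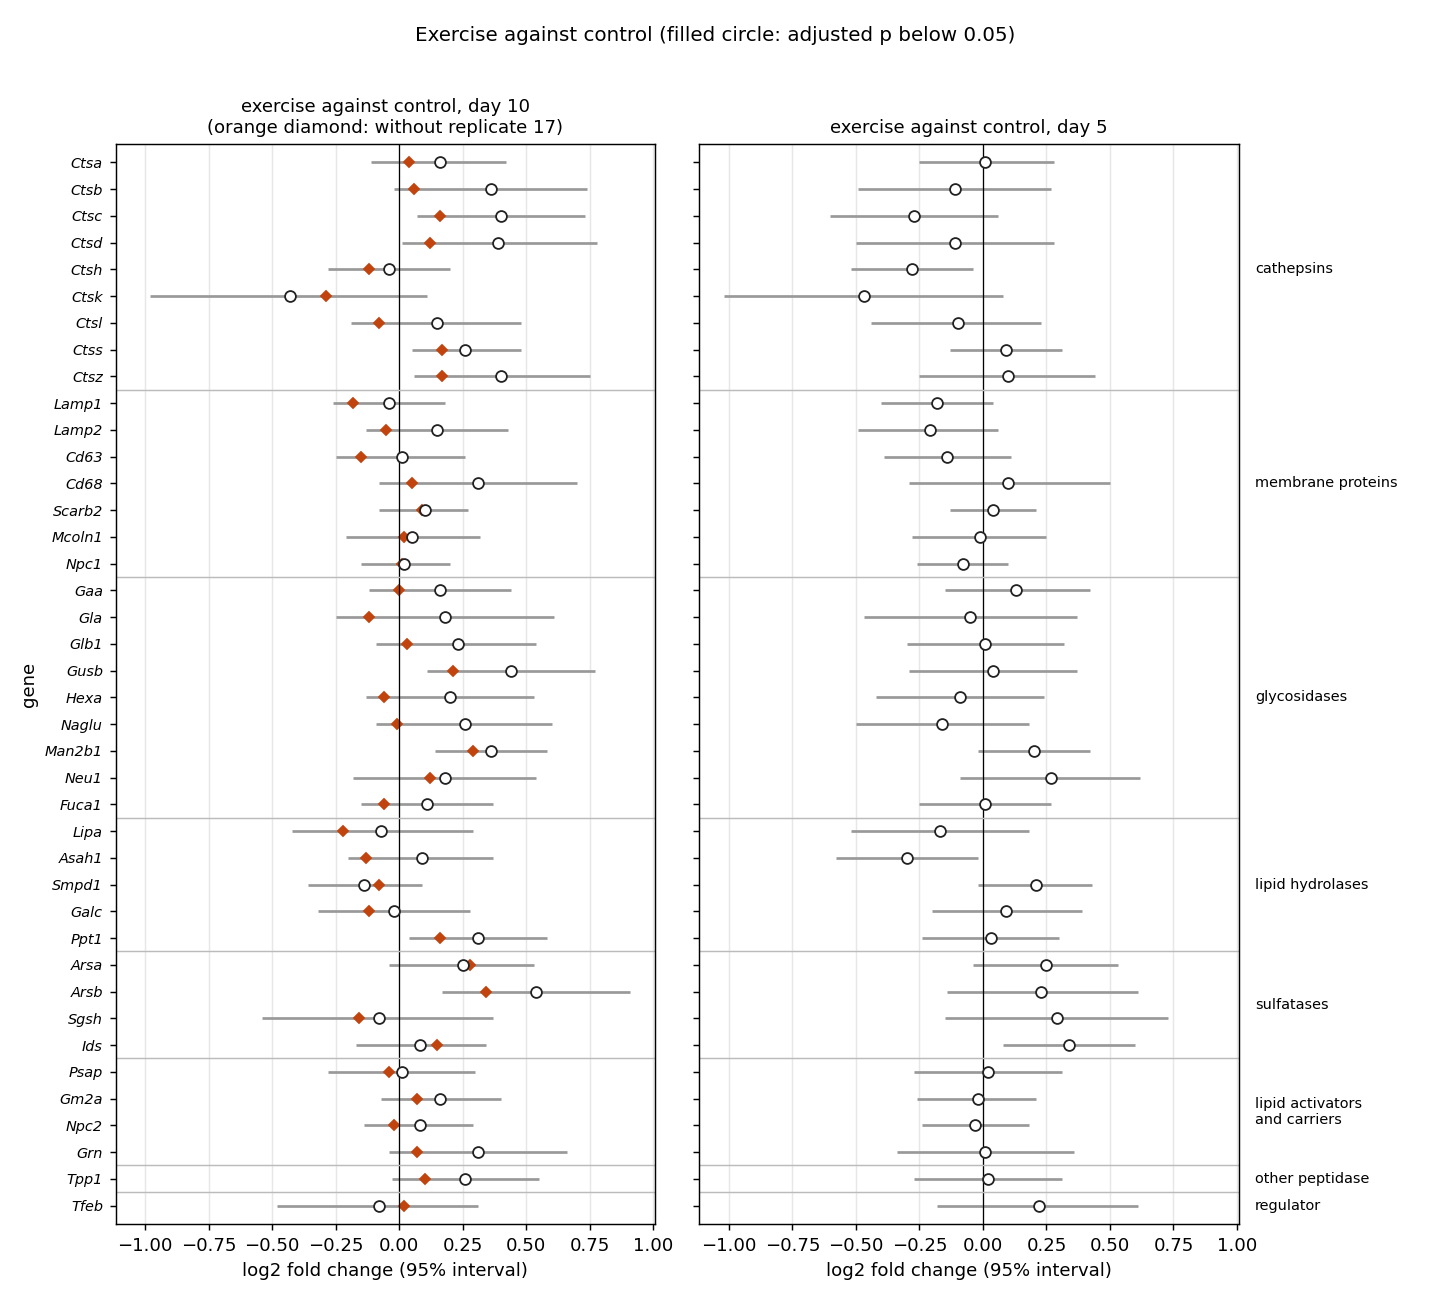
Log2 fold change of exercise against control for each of the 40 genes at day 10 (left) and day 5 (right), with 95% intervals; orange diamonds are day 10 values without replicate 17. No circle is filled, since no gene passed at an adjusted p below 0.05, and at day 10 most diamonds lie left of their circles.

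At day 5 none of the 40 genes and 0% of all genes differed between exercise and control at the threshold, by edgeR, and DESeq2 and limma-voom also called none of the 40. At an unadjusted p below 0.05 there was 1 gene higher, Ids, and 1 lower, Ctsh, against 4.9% and 5.12% of all genes. The median log2 change was 0.01, the same as over all genes. Ids had 22.3, 22.68, 25.75 and 26.15 CPM in exercise, against 19.8, 19.58, 18.18 and 18.82 CPM in control. The groups were apart (log2 change 0.34, SE 0.13, adjusted p 0.418). Ctsh, which encodes an aminopeptidase, had 751.5, 820.7, 754.6 and 664.7 CPM in exercise, against 946.9, 977.2, 852.5 and 863.8 CPM in control. Every exercise library was below every control library (log2 change -0.28, SE 0.12, adjusted p 0.452).

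Asah1, the acid ceramidase, had 621.4, 586.2, 677.8 and 570.7 CPM in exercise, against 814.2, 718.8, 749 and 741.4 CPM in control at day 5. These did not overlap either (log2 change -0.30, SE 0.14, adjusted p 0.501). In the authors' deposited table the Asah1 change was also -0.30, with an adjusted p of 0.0435, and it was the 1 gene of the 40 that passed there. In the authors' deposited table for day 10, which leaves out exercise replicate 17, none passed, and the lowest adjusted p was 0.408. Smpd1 was second on the higher side at day 5, with 58.59, 50.55, 51.78 and 59.48 CPM in exercise, against 48.26, 47.07, 50.52 and 45.28 CPM in control (log2 change 0.21, adjusted p 0.554). Its groups were apart by a small gap. At day 10 Smpd1 had 46.2, 40.99, 52.05 and 45.25 CPM in exercise, against 53.31, 58.63, 42.17 and 48.79 CPM in control, with overlap (log2 change -0.14, adjusted p 0.644). Asah1 had 498.5, 944, 553.8 and 656.2 CPM in exercise at day 10, on both sides of the control values of 613.2, 634, 619.8 and 632.8 CPM. Ids had 33.07, 23.62, 24.65 and 28.61 CPM in exercise at day 10, within and above the control range of that day. The gaps of these genes between the wheel groups at day 5 were therefore not present at day 10.

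The genes followed throughout had small estimates between the wheel groups at day 5. Log2 changes were 0.09 for Ctss, -0.11 for Ctsd, -0.18 for Lamp1, 0.10 for Cd68, -0.09 for Hexa, -0.17 for Lipa, 0.09 for Galc and 0.22 for Tfeb, with adjusted p-values of 0.612 or above. Lamp1 had 2585, 2916, 2755 and 2601 CPM in exercise, all below the control values given above. In exercise at day 10 it had 2084, 3097, 2225 and 2330 CPM, and only replicate 17 exceeded the control range of that day. Hexa had 400.2, 675.9, 307.3 and 425.6 CPM in exercise and 346.1, 437.5, 422.4 and 369.7 CPM in control at day 10. At day 5 it had 379.5, 422.2, 449.5 and 398.2 CPM in exercise and 421.5, 412, 433.2 and 487.7 CPM in control, so that replicate 17 was its highest library in the study.

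Galc had 102.9, 138.8, 93.2 and 123.2 CPM in exercise at day 10, around the control values of that day, and 147.6, 107.2, 136.1 and 101.1 CPM in exercise at day 5. No group of Galc stood apart from another. Tfeb was expressed at a low level, with 29.99, 17.08, 24.12 and 17.15 CPM in exercise and 22.86, 20.27, 23.36 and 27.1 CPM in control at day 10. At day 5 it had 17.51, 29.9, 20.15 and 22.84 CPM in exercise and 24.33, 19.74, 16.4 and 17.15 CPM in control. All 4 groups of Tfeb overlapped, and it did not pass in any comparison.

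As the mean over both days, exercise against control called none of the 40 genes, against 0.146% of all genes. At an unadjusted p below 0.05 there were 5 higher, Man2b1, Arsb, Arsa, Ids and Ctss, and 1 lower, Ctsk, against 7.37% and 6.23% of all genes. Man2b1 had a log2 change of 0.28 (SE 0.08, adjusted p 0.133), and DESeq2 called it with an adjusted p of 0.0335, its only call among the 40. Ctsd (0.14), Lamp1 (-0.11), Cd68 (0.21), Hexa (0.06), Lipa (-0.12), Galc (0.04) and Tfeb (0.07) had adjusted p-values of 0.551 or above. Without replicate 17 there were 4 higher (Man2b1, Arsb, Arsa and Ids) and 3 lower (Asah1, Lamp1 and Ctsh), against 15.3% of all genes in either direction. In that fit 21 of the 40 values were above 0, against 32 with all libraries, and the median was 0.01, against 0.07. Man2b1 then had 0.24 (adjusted p 0.131), and Ctsd had 0, Lamp1 -0.18, Cd68 0.07, Hexa -0.08, Lipa -0.20, Galc -0.02 and Tfeb 0.12. This mean uses the same 16 libraries as the comparisons by day and is no independent evidence beside them. Arsb had 444.7, 304.8, 312.8 and 409.5 CPM in exercise, against 272.3, 281, 309.4 and 388.3 CPM in control at day 5, which overlapped. Ctsk had 25.91, 25.46, 48.31 and 31.12 CPM in exercise at day 5, against 46.75, 60.15, 50.44 and 24.06 CPM in control. Its groups overlapped at both days. Ctsh had 753.3, 1011, 823.6 and 869.8 CPM in exercise, against 766.1, 762.9, 956.4 and 1063 CPM in control at day 10, so its separation at day 5 was not seen at day 10.

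Cathepsins and the enzymes of sugars and lipids were set side by side. Between the days 4.9% of all genes were lower and 5.17% higher in exercise, and 6.64% lower and 5.66% higher in control. Without exercise replicate 17 of day 10 the exercise shares were 5.86% lower and 6.07% higher. Of the 9 cathepsins, none passed in exercise lesions and 2 fell in control lesions between the days, with median log2 changes of 0.12 in exercise and -0.34 in control. Without replicate 17, 3 cathepsins fell in exercise (Ctsb, Ctsc and Ctsl) and the median was -0.16. Of the 14 glycosidases and lipid hydrolases, 2 fell and 1 rose in exercise, and 3 fell and 1 rose in control, with medians of -0.05 in exercise and -0.21 in control. Without replicate 17, 3 fell and 1 rose in exercise and the median was -0.21. The summed level of cathepsins was 29220 ± 9768 CPM in exercise and 23220 ± 2372 CPM in control at day 10, and 29590 ± 1383 CPM in exercise and 31560 ± 3554 CPM in control at day 5. Cathepsin counts were thus 6.02 ± 0.39 times those of glycosidases and lipid hydrolases in exercise and 5.71 ± 0.388 times in control at day 10. At day 5 the ratio was 5.76 ± 0.248 in exercise and 5.97 ± 0.601 in control (SD, n = 4 libraries each). Without replicate 17 the cathepsin sum in exercise at day 10 was 24670 ± 4370 CPM and the ratio 5.85 ± 0.234 (SD, n = 3). The differences between these mean ratios were smaller than the largest of their SDs. A sum is led by its most abundant genes, here Ctsd and Ctsb among cathepsins and Gusb among glycosidases.

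Within the classes the genes did not move as one. Among glycosidases Gla fell and Man2b1 rose in both wheel groups and Gusb fell in control, while Gaa, Glb1, Hexa, Naglu, Neu1 and Fuca1 passed in neither. All 7 membrane proteins had values below 0 in control lesions, from -0.86 for Cd68 to -0.09 for Scarb2, a transport receptor of the lysosomal membrane, and Cd68 and Cd63 passed. Among lipid hydrolases Lipa alone passed; Asah1, Smpd1, Galc and Ppt1 lay between -0.27 and 0.09 in control and between -0.26 and 0.11 in exercise. The 4 genes counted as activators and carriers were split, with Psap and Grn below 0 and Gm2a and Npc2 above 0 in both wheel groups. Without replicate 17 Grn passed as lower in exercise, with a log2 change of -0.5. Tpp1, a peptidase, had log2 changes of -0.14 in exercise and -0.38 in control and passed in neither.

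Genes of the same organelle that are not among the 40 were counted by list, against 4.9% lower and 5.17% higher in exercise and 6.64% lower and 5.66% higher in control among all genes. Of 20 subunits of the V-ATPase, the proton pump that acidifies lysosomes, 11 fell and none rose between the days in control, and 8 fell and none rose in exercise (12 lower and 1 higher without replicate 17). Their medians were -0.34 in exercise (-0.42 without replicate 17) and -0.42 in control. Atp6v1d, a subunit of the pump's stalk, averaged 105.8 ± 16.78 CPM in exercise and 101.4 ± 6.639 CPM in control at day 10, and 163.2 ± 14.61 CPM in exercise and 153.5 ± 18.36 CPM in control at day 5 (SD, n = 4). Its log2 change was -0.63 in exercise and -0.60 in control, with edgeR adjusted p-values of 0.00298 and 0.00315. Atp6v1h (-0.50 in exercise, -0.49 in control), Atp6ap2 (-0.66 in both) and Atp6v0d1 (-0.40 and -0.43) fell in both wheel groups.

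Of 24 other lysosomal hydrolases, 3 fell and 1 rose in exercise (7 and 2 without replicate 17), and 7 fell and 2 rose in control. Scpep1, a serine carboxypeptidase, fell by 0.59 in exercise and by 0.90 in control on the log2 scale. Smpdl3a, a relative of acid sphingomyelinase, fell by 0.75 in both. Ctsf, another cathepsin, went the other way and rose by 1.08 in exercise and by 0.78 in control.

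Of 20 further membrane proteins and transporters, 1 fell and 3 rose in exercise (2 and 2 without replicate 17), and 3 fell and 2 rose in control. Laptm5, a lysosomal membrane protein of blood-derived cells and microglia, rose by 0.68 in exercise and by 0.61 in control. Of 10 genes of mannose 6-phosphate tagging and sorting, 1 fell in exercise (2 without replicate 17), and 2 fell and 1 rose in control. The sorting receptor gene Igf2r fell in both, with log2 changes of -0.97 in exercise and -0.84 in control. Of 18 genes of the TFEB family and of mTORC1 at the lysosome, 1 fell (2 without replicate 17) and 2 rose in exercise, Mitf (0.58) and Rptor (0.53) being the higher ones, and 2 fell and 2 rose in control. Of 20 autophagy genes, none passed in exercise and 1 rose in control, Ulk1 (0.68), a kinase that starts autophagosome formation, a share near that of all genes.

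Cathepsin inhibitors moved in both directions. Of 5 tested of 10 listed, 2 rose and 2 fell in each wheel group, and without replicate 17 there were 6 tested, 2 higher and 3 lower in exercise. Cst7, cystatin F, which inhibits cathepsin C and is a gene of activated microglia, averaged 191.5 ± 84.32 CPM in exercise and 122.3 ± 29.66 CPM in control at day 10, and 35.13 ± 9.826 CPM in exercise and 36.08 ± 8.154 CPM in control at day 5. Its log2 change was 2.44 in exercise (adjusted p 9.38e-05) and 1.76 in control (adjusted p 0.000615, edgeR). Cst3, the secreted inhibitor cystatin C, rose by 1.55 in exercise and by 1.19 in control. Cstb, an inhibitor of the cytosol, had log2 changes of -0.93 in exercise and -0.94 in control, and Serpinb6a, a serpin, had -0.81 and -0.62. None of these lists had a gene that passed for exercise against control at either day.

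Markers of cell types moved between the days alongside these genes. Among all genes 4.9% were lower and 5.17% higher in exercise, and 6.64% lower and 5.66% higher in control. Of 10 microglial markers 7 rose in exercise (6 without replicate 17) and 4 in control, and their summed level was 7841 to 16420 CPM in exercise and 7122 to 9743 CPM in control at day 10, against 7120 to 9717 CPM in exercise and 8317 to 11090 CPM in control at day 5. Of 10 markers of monocyte-derived macrophages 6 fell in exercise (4 without replicate 17) and 3 in control. Their sums were 4804 to 6849 CPM in exercise and 5632 to 6827 CPM in control at day 10. At day 5 they were 7310 to 12190 CPM in exercise and 6705 to 12580 CPM in control. These sums were mostly Lyz2, which averaged 5302 CPM in exercise and 6026 CPM in control at day 10. At day 5 Lyz2 averaged 9214 CPM in exercise and 8960 CPM in control. Of the genes that fell in exercise, Chil3, F10, Ly6c2 and Ms4a4c averaged 0.21 to 1.26 CPM in exercise at day 10. Of 10 markers shared by macrophages and microglia 4 rose in exercise (4 higher and 1 lower without replicate 17), and 2 rose and 1 fell in control, with sums of 1636 to 2622 CPM and 1501 to 1808 CPM in exercise and control at day 10, against 1508 to 1571 CPM and 1346 to 1645 CPM at day 5. Of 10 oligodendrocyte markers 3 rose in exercise (8 without replicate 17) and 7 in control, with sums of 12350 to 28470 CPM and 24670 to 27760 CPM in exercise and control at day 10, against 12390 to 17460 CPM and 11200 to 15360 CPM at day 5. No marker of these 4 lists was at 0 in all libraries of a group.

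Beside the fall of Cd68, Lipa and Psap, the microglial and monocyte-derived marker lists thus moved in part: in control 3 of 10 microglial values were below 0 and their median summed level was 8391 CPM at day 10, against 9457 CPM at day 5, and 3 of 10 monocyte-derived values were above 0. The part of these cells in the fall was not tested. The remaining marker lists were smaller, and their counts stand against the same shares of all genes. Of 6 astrocyte markers 2 rose in exercise and 3 in control, of 6 markers of oligodendrocyte precursors 1 rose in each, of 6 neuronal markers 1 fell in each, and of 6 endothelial markers 3 fell in exercise and none passed in control. Of 5 neutrophil markers 3 were tested and 1 fell in each wheel group, Mmp8, and their sums were 2.838 to 4.16 CPM in exercise and 4.09 to 8.269 CPM in control at day 10, against 13.18 to 24.4 CPM and 4.87 to 23.16 CPM in exercise and control at day 5. Of these 5 markers 2 were at 0 in every exercise library of day 10, and 1 in every exercise and 1 in every control library of day 5. For exercise against control at day 10, Itgam of the shared list rose by 1.02 and Plac8 of the monocyte-derived list fell by 1.98 on the log2 scale, and no other marker passed. Without replicate 17 neither list had a call in that comparison.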

How the data were processed

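The deposited table holds counts of reads per gene for 16 libraries. Per the labels' protocols, RNA from the dissected lesions was amplified with a REPLI-g kit, poly-A selected and sequenced as stranded 75-nt single reads. Per the submitters' processing notes, the authors used FastQC 0.11.4, TopHat2 2.0.10, Bowtie 1.1.2, featureCounts 1.5.0-p1 and DESeq2 1.12.4 with build GRCm38. Their deposited comparison tables give log2 changes and adjusted p-values, which were only quoted. Amplification and poly-A selection can shift levels between genes, so levels are best compared within a gene.

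Counts were fitted in R 4.3.3 with edgeR 4.0.16 (TMM scaling, filterByExpr with a minimum count of 10 and total of 15, robust quasi-likelihood test, 1 spread over 16 libraries in 4 groups, common biological coefficient of variation 0.236). P-values were adjusted over all 15096 genes (Benjamini-Hochberg). Intervals are the estimate ± 1.96 SE. The test was checked on simulated counts. Alternatives were DESeq2 1.42.0, limma-voom (limma 3.58.1), other scalings, no filter, the compared groups alone, a replicate block and leaving out each library. Symbols were present for 45143 of 46078 genes, and no 2 libraries had identical counts.

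Named in every comparison were Ctsd, Lamp1, Cd68, Galc, Hexa, Lipa and Tfeb, with library values for these and Ctss; also named were the genes past the threshold, and the 2 with the smallest p in each direction. Members and lists were chosen with earlier results of these data known. The lists, classes and sums without replicate 17 and the shown Ctsb, Ctsz and Sgsh values were added after their values were seen.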

Additional observations from a re-analysis of the deposited data

Results flagged for a closer look

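In each group of 4 libraries, a library was looked at again when its gap to the nearest other one as a share of the group's range exceeded Dixon's 95% critical value for 4 samples. Of 160 combinations of a gene and a group, 14 did so, and chance alone gives about 1 in 20. In exercise at day 10, replicate 17 was set apart for 4 genes: Ctss had 4141 CPM in it, against 3179 to 3285 CPM in the other 3, Man2b1 629.8 CPM against 522.8 to 533.8 CPM, Fuca1 302.7 CPM against 193 to 207.8 CPM, and Gaa 128.9 CPM against 87.05 to 89.88 CPM. In the same group Sgsh was low in replicate 13, at 6.24 CPM, against 10.96 to 11.61 CPM.

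In control at day 10, Cd68 was low in replicate 2 (465.3 CPM, against 620.1 to 635.5 CPM), Scarb2 low in replicate 4 (453.6 CPM, against 502.1 to 508.8 CPM), and Galc high in replicate 3 (128.9 CPM, against 111.2 to 112.7 CPM). Replicate 5 was low for Ctsk (64.19 CPM, against 74.57 to 75.35 CPM) and for Gla (29.64 CPM, against 35.01 to 35.9 CPM). In exercise at day 5, Gusb was high in replicate 1 (2009 CPM, against 1874 to 1895 CPM). In control at day 5, Ctsz was high in replicate 6 (838.3 CPM, against 576 to 614.9 CPM), Sgsh high in replicate 1 (19 CPM, against 11.7 to 12.3 CPM) and Gla low in replicate 5 (70.22 CPM, against 96.31 to 101.6 CPM).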

How the results depend on the processing

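Over the settings that did not leave out a library, 339 of the recomputed values kept their direction and side of the threshold, 15 were weaker, 3 stronger and 2 reversed, and over those that left out 1 library 675 kept both, 37 were weaker, 2 stronger and 30 reversed; the causes were not tested. Called lysosome genes between the days in exercise numbered 7, against 4 with no filter, 3 with only the groups compared and 3 to 13 when 1 library was left out. Between the days in control 8 were lower and 2 higher, against 13 lower and 2 higher with only the groups compared. For exercise against control at day 10 the called lysosome genes numbered 0, and 0 to 1 when 1 library was left out. For the mean of both days they numbered 0, against 1 by DESeq2. Without mitochondrial genes and on raw totals the summed level was 53660 CPM in control at day 10 and 71940 CPM in exercise at day 5.

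The deviations of same-numbered libraries correlated at 0.069 and -0.029 (day 5) and at 0.056 and 0.017 (control, both days). Each value rests on 1 pair of libraries, so these values cannot decide whether shared numbers mark paired libraries. With these numbers as a replicate block, 3 of 40 genes were called between the days in control, against 10 without it. Ctsd and Galc had log2 changes of 0.08 and -0.03 for exercise against control at day 5. Only numbers 2 and 5 were shared between the days in control, and only 1 and 2 at day 5. The other libraries had no partner in the block. No paired analysis was possible for the other comparisons because their groups share fewer than 2 numbers or no such fit was defined.

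Log2 changes that changed sign when 1 library was left out ranged as follows. For exercise against control at day 10 the ranges were -0.18 to 0.01 for Lamp1, -0.06 to 0.34 for Hexa, -0.22 to 0.02 for Lipa, -0.12 to 0.06 for Galc and -0.28 to 0.02 for Tfeb. At day 5 they were -0.16 to 0.01 for Ctsd and 0 to 0.22 for Galc, and for the mean of both days 0 to 0.22 for Ctsd, -0.08 to 0.12 for Hexa, -0.02 to 0.10 for Galc and -0.03 to 0.13 for Tfeb. Between the days they were -0.16 to 0.27 for Ctsd, -0.12 to 0.27 for Hexa and -0.22 to 0.13 for Tfeb in exercise and -0.09 to 0.13 for Galc in control. For the difference of the exercise effects they were -0.05 to 0.37 for Cd68 and -0.05 to 0.21 for Lipa.

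Over all genes, exercise against control called 29 genes at day 10, against 227 by DESeq2, 0 with only the groups compared and 0 to 133 when 1 library was left out, and 0 at day 5, against 80 by DESeq2. For the mean of both days it called 22, against 323 by DESeq2 and 0 to 100 when 1 library was left out, and for the difference of effects 0, against 18 by DESeq2. Between the days 1520 genes were called in exercise, against 856 with only the groups compared and 975 at the lowest when 1 library was left out, and 1858 in control, against 561 with the replicate block. What size of change could be detected in genes with few counts was not tested.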
